A study of Mus musculus with 8 samples.

Results

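The single knockouts of Cpt2 and Ppara in fasted mouse liver were compared by ATAC-seq, in which a transposase cuts open chromatin and the cut sites pile up into peaks. The comparison used 4 of the series' 8 libraries, 2 from livers with the genotype Cpt2 L-/- (a knockout in liver) and 2 from Ppara -/- livers. The other 4, 2 wild type and 2 Cpt2 L-/- ; Ppara -/- double knockout libraries, served only to place the regions that differed. All mice were C57BL/6 males of 9 weeks, kept on chow and fasted for 24 h before the liver was flash-frozen. The Ppara deletion is called whole-body in the double knockout's label, whereas the Cpt2 deletion is confined to liver; the promoter driving deletion of Cpt2 is not given in the sources used here, nor is whether each library came from 1 mouse. The members were consensus regions, taken from the authors' table of merged peaks: 44669 of its 49587 regions were overlapped by a peak in at least 1 of the 4 libraries. A region counted as changed when both libraries of one knockout had a peak there and neither library of the other did. In bulk liver, fewer cells of a type and less open chromatin per cell cannot be told apart.

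Ppara encodes PPAR-alpha, a nuclear receptor that binds fatty acids and, with its partner RXR, switches on genes of fatty acid uptake, activation, oxidation and ketone synthesis when the liver is fasted. Cpt2 encodes carnitine palmitoyltransferase 2, the inner mitochondrial membrane enzyme that turns acylcarnitines back into acyl-CoA, without which long-chain fatty acids cannot enter mitochondrial beta-oxidation. Livers without Cpt2 thus lack a step of the pathway while keeping the receptor, and livers without Ppara lack the receptor while keeping the enzyme.

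Genes that handle fatty acids gave several of the regions called in one knockout alone. With all peaks 10415 of 44669 regions (23.3%) were called only in Cpt2 knockout, 1653 of them within 1 kb of a gene start. The Ppara knockout lists held fewer peaks, so a missing peak need not mean closed chromatin. The genes named here were picked after their values were seen. The starts of Cpt1a and Ehhadh, also genes of fatty acid oxidation, were called in all 4 libraries. Promoters of Fabp1 (liver fatty acid-binding protein), Acot1 (a cytosolic acyl-CoA thioesterase), Acaa1b (a peroxisomal thiolase) and Plin5 (a lipid droplet coat protein) had peaks in both Cpt2 knockout libraries and none in either Ppara knockout library. The start of Acox3, a peroxisomal acyl-CoA oxidase, was open in all 4 libraries but ranked higher in Cpt2 knockout. The promoters of 4 of these genes are shown, each from 250 bases before to 50 bases after the gene start, from RefSeq on GRCm38.p6 (the assembly of mm10), 5′ to 3′ on the gene's strand. Capitals mark a match to AGGNCANAGGNCA, the direct repeat spaced by 1 base that PPAR-alpha with RXR is known to bind, read on either strand. Fabp1 lies at chr6:71199629-71199928 (plus strand), Acot1 at chr12:84009252-84009551 (plus), Acaa1b at chr9:119157044-119157343 (minus) and Acox3 at chr5:35582784-35583083 (plus).
Fabp1: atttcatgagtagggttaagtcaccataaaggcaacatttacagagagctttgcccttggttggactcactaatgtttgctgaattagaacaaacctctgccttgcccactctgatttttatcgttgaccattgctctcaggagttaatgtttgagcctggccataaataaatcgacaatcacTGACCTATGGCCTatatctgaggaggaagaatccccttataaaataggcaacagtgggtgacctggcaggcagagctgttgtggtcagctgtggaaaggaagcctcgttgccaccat
Acot1: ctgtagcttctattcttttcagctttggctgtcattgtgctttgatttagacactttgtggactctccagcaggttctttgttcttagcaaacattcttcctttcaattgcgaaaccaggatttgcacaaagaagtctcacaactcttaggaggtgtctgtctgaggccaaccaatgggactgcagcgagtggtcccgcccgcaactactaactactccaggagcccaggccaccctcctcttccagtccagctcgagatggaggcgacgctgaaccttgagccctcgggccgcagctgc
Acaa1b: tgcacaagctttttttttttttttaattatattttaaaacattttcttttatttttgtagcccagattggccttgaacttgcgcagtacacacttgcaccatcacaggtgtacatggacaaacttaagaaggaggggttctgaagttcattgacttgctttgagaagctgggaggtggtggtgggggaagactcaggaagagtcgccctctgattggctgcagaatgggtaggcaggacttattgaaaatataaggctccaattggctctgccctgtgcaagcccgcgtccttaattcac
Acox3: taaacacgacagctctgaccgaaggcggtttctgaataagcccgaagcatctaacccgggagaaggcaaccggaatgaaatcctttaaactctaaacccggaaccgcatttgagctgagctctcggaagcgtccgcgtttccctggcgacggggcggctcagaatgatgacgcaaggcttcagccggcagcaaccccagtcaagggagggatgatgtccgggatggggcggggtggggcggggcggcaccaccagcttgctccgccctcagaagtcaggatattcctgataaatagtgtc

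The Fabp1 match, TGACCTATGGCCT, reads on the minus strand and occupies positions 184 to 196 of the window, counted from its first base, so that it begins 67 bases before the gene start. No other of the 4 windows holds these letters. Over all 21263 promoter windows, 75 (0.353%) held a match. Among windows overlapping a region called only in Cpt2 knockout in equal-number lists, explained below, 2 of 113 (1.77%) held one; with all peaks it was 3 of 1013 (0.296%), below the share of all windows. The counts were 0 of 239 for Ppara knockout regions in equal-number lists and 12 of 7148 (0.168%) for regions called in all 4 libraries. The strict form AGGTCANAGGTCA occurred in 10 of all windows and in none of those of the changed regions. These counts are small, and a match of letters is not a measured binding site.

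Cpt2 knockout livers gave far more peaks. The Cpt2 knockout libraries held 39296 and 35908 peaks and the Ppara knockout libraries 20340 and 18283. The groups did not overlap, and the mean was 1.95 times as high in Cpt2 knockout, at 37602 ± 2396 against 19311.5 ± 1455 (SD, n = 2 each). With 2 libraries against 2 the two-sided exact permutation test gave p = 0.333, the smallest it allows. Among strong peaks, with a −log10 q of at least 20, the ratio of the means widened to 3.21, from 25361 to 7901.5 peaks. Peaks covered 16.0 Mb and 7.25 Mb of genome on average, and the median of the authors' fold over local background was 7.05 and 5.79. Read totals are not analysed here, so depth is unknown. The peak names carry a number, 446 and 4717 in the Cpt2 knockout and 6834 and 6833 in the Ppara knockout lists, whose meaning the sources used here do not give; the double knockouts carry 6832 and 6831, and wild type 441 and 443. Should it mark a run or batch, a run effect and loss of Ppara cannot be told apart.

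Regions changed almost entirely in one direction when all peaks were used. Of the 44669 regions, 10415 (23.3%) separated toward Cpt2 knockout and 139 (0.311%) toward Ppara knockout, while 13819 (30.9%) were called in all 4 libraries. Because the Cpt2 knockout lists were longer, the comparison was repeated with the strongest 18283 peaks of each library by −log10 p, termed equal-number lists. The counts then came close to each other: 1635 of 26568 regions (6.15%) separated toward Cpt2 knockout and 1096 (4.13%) toward Ppara knockout. Lists of equal length call nearly equal numbers of regions, so gains in one knockout are largely offset by gains in the other. The closeness is thus partly built in, and these counts cannot show a difference in openness over the whole genome. Leaving out any of the 4 libraries raised the equal-number counts, and the larger direction turned with the library: they were 3022 and 1834 without Cpt2 knockout library 1, 3133 and 1963 without library 2, 3360 and 3530 without Ppara knockout library 1, and 2495 and 2772 without library 2. The 139 regions became 227 to 869; without Cpt2 knockout library 2 the 10415 regions became 17366. Regions separating the groups in both ways of counting numbered 1451 (5.46%) for Cpt2 knockout and 102 (0.384%) for Ppara knockout.

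The direction of the smaller set needs its construction in view. Of the 1096 regions called only in Ppara knockout in equal-number lists, 799 (72.9%) had a weaker peak in both full Cpt2 knockout lists, and 102 (9.31%) had none in either. Of the 1635 Cpt2 knockout regions, 1451 (88.7%) had no peak in either full Ppara knockout list; these were the shortest lists, and that of Ppara knockout library 2 lost no peak by shortening, so few weaker peaks could exist there. Libraries of one genotype did not always resemble each other more than they resembled the other genotype. In equal-number lists the Ppara knockout pair shared 61.2% of the regions called in either, within the 55.9% to 62.7% found between the knockouts, and the Cpt2 knockout pair shared 70.3%.

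**Figure D1:**
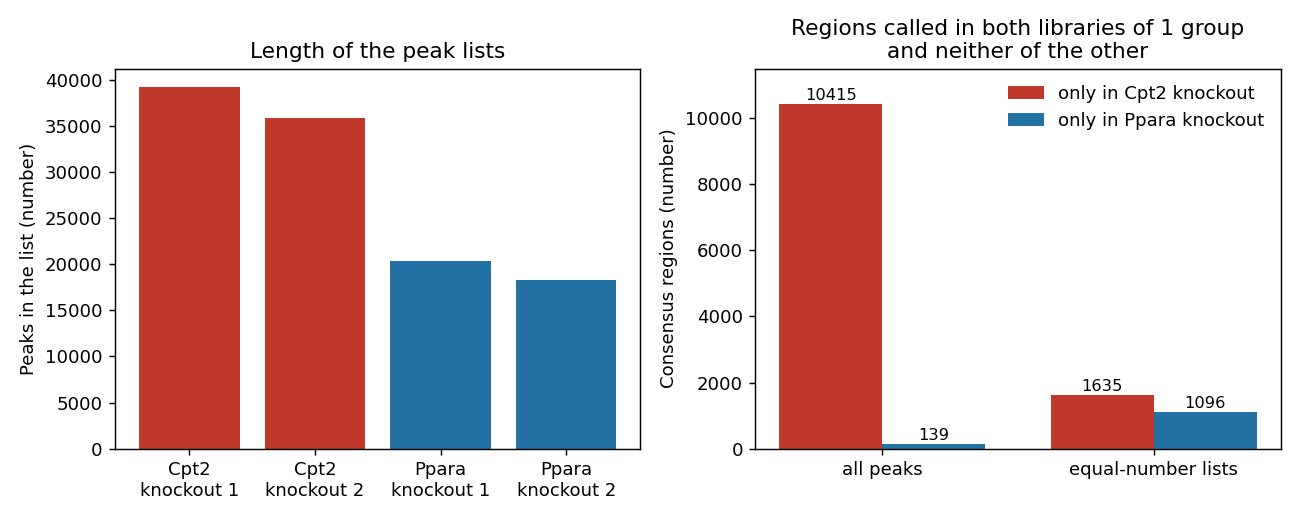
Left, number of peaks in each Cpt2 knockout and Ppara knockout library (1 bar per library). Right, number of consensus regions called in both libraries of one knockout and neither of the other, with all peaks and with equal-number lists. With all peaks 10415 regions separated toward Cpt2 knockout and 139 toward Ppara knockout, and with equal-number lists 1635 and 1096.

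At the Cpt2 and Ppara genes themselves, peaks cannot test the deletions, since an open promoter can remain when an exon is lost. The start of Cpt2 was called in all 4 libraries, at percentiles 59.6 and 47.7 of the Cpt2 knockout lists and 59.1 and 43.1 of the Ppara knockout lists, which are not comparable as levels because a percentile here is the rank of a peak's −log10 p within its own library's list, 100 being the strongest, and the lists differ in length. A region inside Cpt2 at chr4:107921928-107922335 was called in the Cpt2 knockout libraries (percentiles 82.0 and 62.9) and in no Ppara knockout library. The start of Ppara was called in all 4 libraries, at 78.4 and 79.1 in Cpt2 knockout and 46.3 and 74.9 in Ppara knockout. Inside Ppara, a strong region at chr15:85774288-85774815 reached percentiles 90.5 and 91.2 in Cpt2 knockout and 81.0 and 89.9 in wild type, and had no peak in the Ppara knockout or double knockout libraries.

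In equal-number lists, enzymes of acyl-CoA metabolism had the largest share of Cpt2 knockout regions among gene lists with at least 10 regions; 31 lists were examined, 25 of pathways and functions and 6 of cell type markers. A region was given to its nearest protein-coding gene, and lists are read against all regions, of which 6.15% separated toward Cpt2 knockout and 4.13% toward Ppara knockout in equal-number lists. For enzymes that make or cleave acyl-CoA, 11 of 46 regions (23.9%) were called only in Cpt2 knockout, with 1 called only in Ppara knockout. The 11 lay at Acsl1 (3), Acot4 (2), and Acot1, Acot2, Acot3, Acot5, Acsl5 and Acsm1 (1 each). Most thus lay at Acsl1 or in 1 tandem group of Acot genes. The start of Acot1 had percentiles 90.9 and 75.1 in Cpt2 knockout, 41.3 and 85.8 in wild type, and no peak in the other 4 libraries. Regions nearest its tandem neighbours Acot2, Acot3, Acot4 and Acot5 were also called only in Cpt2 knockout; these genes are close copies, so reads may not be assigned uniquely among them. Acsl1, the main hepatic long-chain acyl-CoA synthetase, had 3 such regions, including one at an internal start site (chr8:46490738-46491174, percentiles 60.0 and 69.6) and one 66448 bp away. Acsl1 also held the single region of the opposite kind, at chr8:46529488-46530019 inside the gene, which was called in all 4 full lists and had ranks among shared regions of 76.3 and 75.9 in Ppara knockout and 12.5 and 11.1 in Cpt2 knockout (limma, adjusted p = 0.0697), so that elements of 1 gene lay in both sets.

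The carnitine shuttle, which carries acyl groups into mitochondria, had 4 of 19 regions (21.1%) called only in Cpt2 knockout, with none called only in Ppara knockout. These were 2 regions outside Crot, the peroxisomal carnitine octanoyltransferase, 1 inside Cpt1a, the gatekeeper of mitochondrial entry, and the one inside Cpt2. The start of Cpt1a was called in all 4 libraries. The mitochondrial beta-oxidation list had 7 of 36 regions (19.4%) called only in Cpt2 knockout, with 1 of the opposite kind. The 7 lay at Pdk4 and Eci2 (2 each) and at Acot2, Hadh and Ucp3 (1 each). Of these genes, Pdk4, Acot2 and Ucp3 do not encode beta-oxidation enzymes. No such region lay at Acadm, Acadl, Acadvl, Acads, Hadha, Hadhb or Acaa2. Pdk4, the kinase that restrains pyruvate dehydrogenase in fasting, had 2 such regions, one 12955 bp away (chr6:5509233-5510158) with percentiles 71.8 and 91.9 in Cpt2 knockout and no peak in any Ppara knockout or double knockout library. Eci2, an enoyl-CoA isomerase, had 2 regions called only in Cpt2 knockout and 1 called only in Ppara knockout.

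Peroxisomal beta-oxidation, which shortens very long chains, had 7 of 49 regions (14.3%) called only in Cpt2 knockout, with 1 called only in Ppara knockout; 3 of the 7, at Acot3 and Acot4, and the Acot2 region of mitochondrial beta-oxidation are also among the 11 acyl-CoA enzyme regions. The start of Acaa1b (chr9:119156848-119157351) reached percentiles 82.7 and 84.5 in Cpt2 knockout and 52.1 and 83.6 in wild type, with no peak in any other library. A region inside Pex11a, a peroxisome division factor, was called in Cpt2 knockout at 69.7 and 83.1. In contrast, the start of Ehhadh, the bifunctional enzyme of the peroxisomal spiral, was called in all 4 libraries, with ranks among shared regions of 61.8 and 58.2 in Cpt2 knockout and 35.8 and 74.1 in Ppara knockout, which overlap. Presence of a peak at the start therefore did not separate the knockouts at this gene.

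Omega-oxidation genes, whose cytochromes P450 attack the far end of the chain, had 5 of 28 regions (17.9%) called only in Cpt2 knockout, with 2 called only in Ppara knockout. The Cyp4a cluster accounted for 4 of the 5: Cyp4a10 and Cyp4a31 had 2 each. The element 3807 bp from Cyp4a10 had percentiles 62.3 and 88.0 in Cpt2 knockout and 60.4 and 73.6 in wild type, and the one 7624 bp from Cyp4a31 had 76.8 and 91.9 in Cpt2 knockout and 65.2 and 72.7 in wild type. Neither had a peak in a Ppara knockout or double knockout library. These P450 genes are also near-identical copies, and their regions carry the same uncertainty as the Acot cluster.

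Ketone body synthesis, which turns acetyl-CoA into fuel for other organs, had 6 of 34 regions (17.6%) called only in Cpt2 knockout, with none called only in Ppara knockout. Among them were regions at Acat1, a thiolase, and Slc16a7, a carrier of monocarboxylates. The start of Bdh1, the hydroxybutyrate dehydrogenase, had percentiles 79.8 and 77.5 in Cpt2 knockout and no peak in Ppara knockout.

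Uptake and storage genes showed the same lean. Fatty acid uptake and binding genes had 5 of 34 regions (14.7%) called only in Cpt2 knockout, with 1 called only in Ppara knockout. The 5 lay at Fabp1 (2) and at Cd36 (3), a membrane fatty acid transporter. The Fabp1 start, whose sequence is shown above, reached percentiles 67.7 and 62.0 in Cpt2 knockout and 14.0 and 74.1 in wild type, and the element 14165 bp away reached 53.9 and 91.3. Lipid droplet genes had 5 of 43 regions (11.6%) called only in Cpt2 knockout, with none called only in Ppara knockout. The Plin5 start had percentiles 76.5 and 72.0 in Cpt2 knockout, and regions next to G0s2, an inhibitor of the lipase ATGL, and Hilpda, a droplet protein, were called likewise. Genes of fatty acid and triglyceride synthesis, the opposing pathway, also leaned this way, with 13 of 92 regions (14.1%) against 2, among them regions at Gpam, Dgat2 and Acacb.

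The lean depended on how the lists were read. With all peaks, where the background toward Cpt2 knockout was 23.3%, uptake genes stood at 40.4%, omega-oxidation at 40.0%, the carnitine shuttle at 39.4% and acyl-CoA enzymes at 35.2%. Cholangiocyte markers stood at 36.1%, and at 12.5% (2 of 16) in equal-number lists, within the range of the lipid lists in both. Ketone synthesis was at 25.5% and mitochondrial beta-oxidation at 18.2%, so the last was below the background with all peaks and above it in equal-number lists. At Fgf21, a hepatokine of fasting, 3 regions separated toward Cpt2 knockout with all peaks and none in equal-number lists. The groups of genes are small, and the counts are descriptions without a test.

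**Figure D2:**
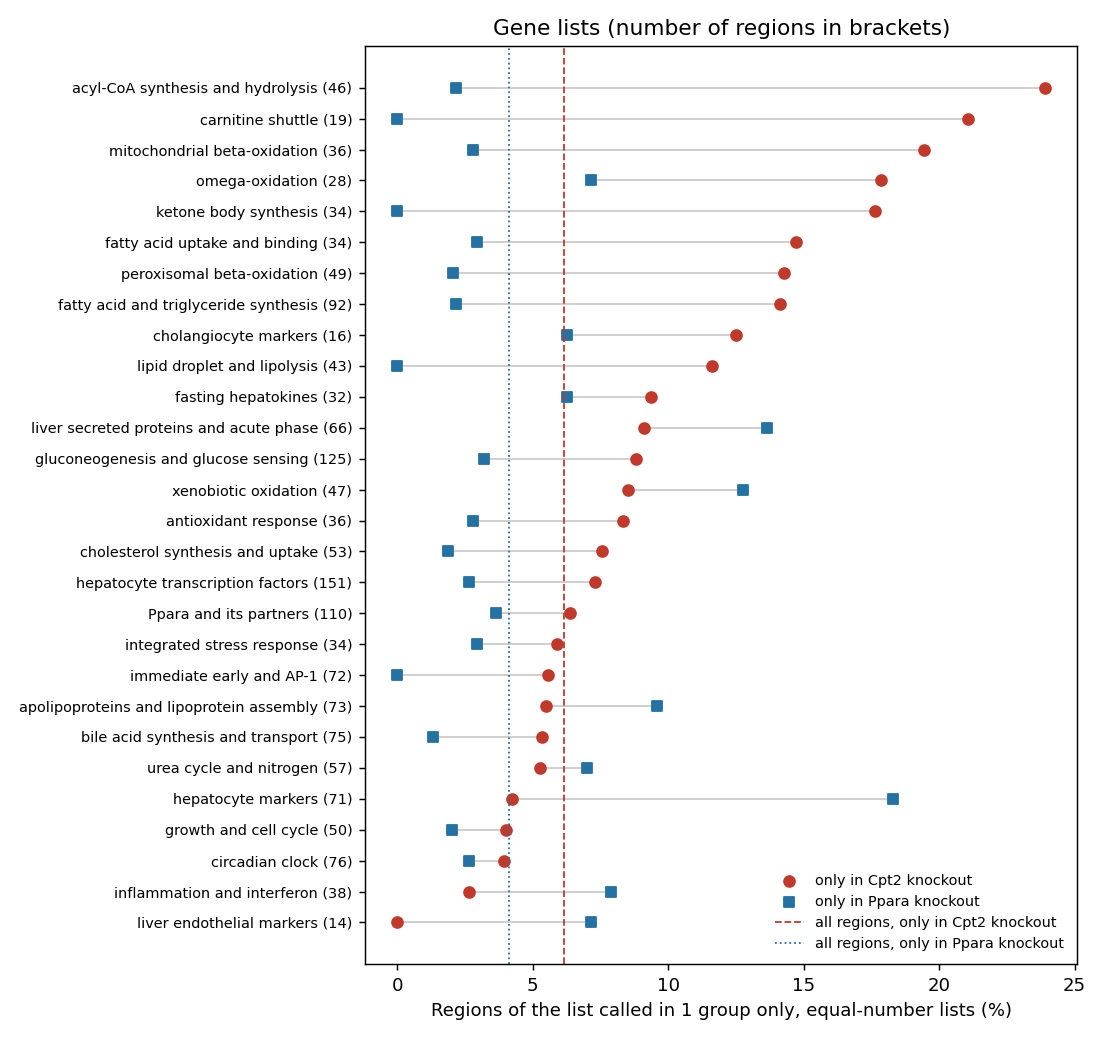
Percent of each list's regions called only in Cpt2 knockout (circles) or only in Ppara knockout (squares) in equal-number lists, for lists with at least 10 regions, whose number is in brackets. The dashed and dotted lines mark all regions, at 6.15% and 4.13%. Acyl-CoA synthesis and hydrolysis reached 23.9% toward Cpt2 knockout, and hepatocyte markers reached 18.3% toward Ppara knockout.

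**Figure D3:**
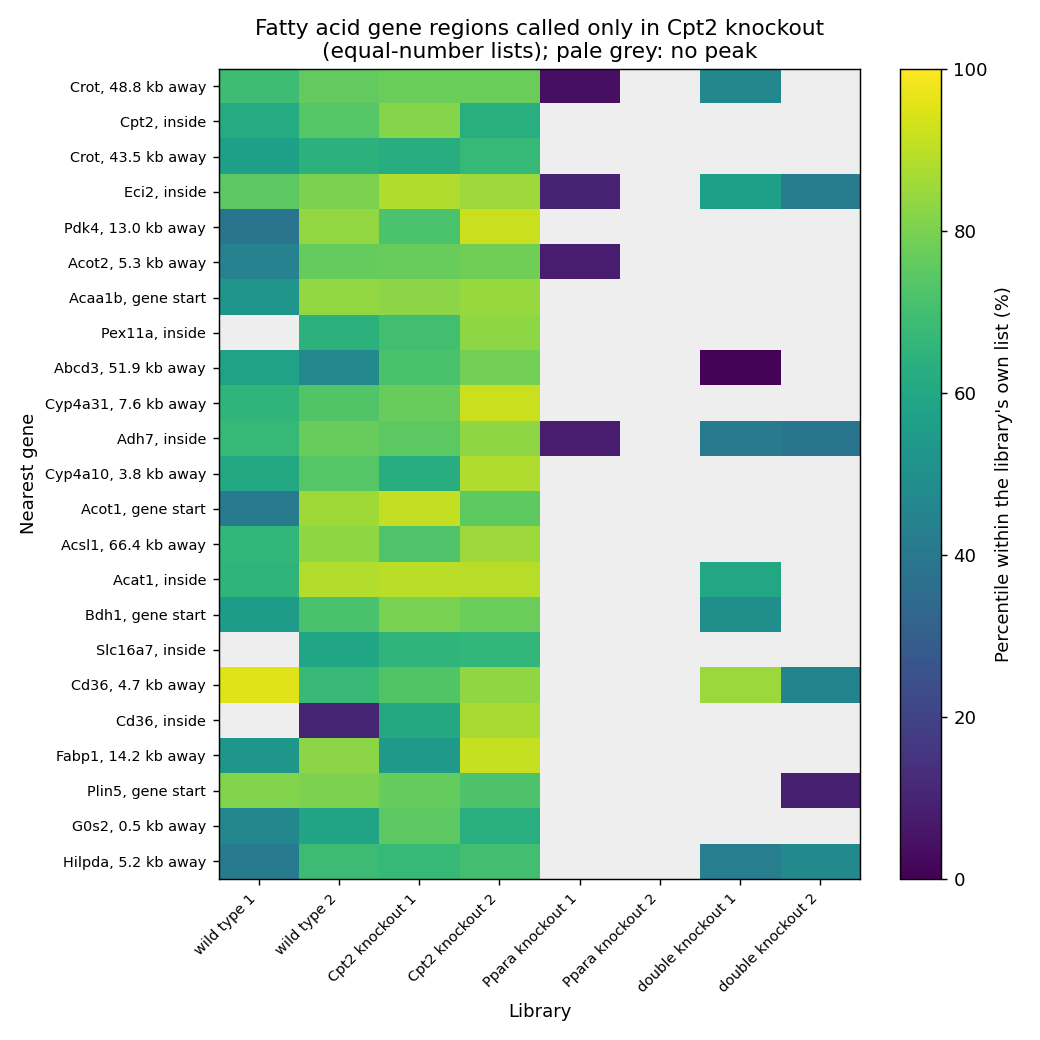
Percentile of the peak's −log10 p within its own library's list (colour, 0 to 100) for up to 3 regions per fatty acid list that were called only in Cpt2 knockout in equal-number lists, in all 8 libraries. Pale grey means no peak. Both Cpt2 knockout columns are filled, because the regions were chosen so, most wild type cells are filled too, and the Ppara knockout columns could by the same choice hold only the weakest peaks of library 1 and none of library 2.

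Other lists lay nearer the background. The receptor and its partners, including Rxra and the coactivators, had 7 of 110 regions (6.36%) called only in Cpt2 knockout, with 4 called only in Ppara knockout. Gluconeogenesis and glucose sensing had 11 of 125 (8.80%) against 4, and 4 of the 11 lay at Foxo1, the insulin-restrained factor of fasting. The circadian clock had 3 of 76 (3.95%) against 2, and the integrated stress response 2 of 34 (5.88%) against 1. Bile acid genes had 4 of 75 (5.33%) against 1; among the 4 was the start of Cyp7a1, the rate-limiting enzyme of bile acid synthesis, at percentiles 60.5 and 70.2 in Cpt2 knockout and 61.2 and 51.5 in double knockout.

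Relative to all regions, genes for abundant hepatocyte products lay on the other side in equal-number lists. With all peaks more of their regions separated toward Cpt2 knockout, as among all regions. Of 71 regions of 12 hepatocyte markers, 13 (18.3%) were called only in Ppara knockout in equal-number lists, against 4.13% of all regions, and 3 (4.23%) only in Cpt2 knockout. They lay at Apob (3), Cps1, Alb and Serpina1a (2 each), and Apoa1, Cyp2e1, Hnf4a and Tat (1 each). Secreted liver proteins gave 9 of 66 (13.6%) and apolipoproteins 7 of 73 (9.59%); these lists share genes with the markers. With all peaks 23 of 107 hepatocyte marker regions (21.5%) separated toward Cpt2 knockout, against 23.3% of all regions. Toward Ppara knockout there were 3 (2.80%), a small count, against 0.311% of all regions. Secreted liver proteins had 24 and 2 of 92, and apolipoproteins 27 and 0 of 130. Of the 13, 9 lay inside the gene and 4 outside, none within 1 kb of a start. Inside Apoa1, the main protein of HDL, the region chr9:46230045-46231240 was called in all 4 full lists, and its ranks are given with the shared regions. Alb was split, with 2 regions inside the gene called only in Ppara knockout and its start (chr5:90460515-90461037) only in Cpt2 knockout, at 75.5 and 88.2. Over 39 hepatocyte marker regions shared by all 4 libraries, the median rank difference, Cpt2 minus Ppara knockout, was −16.3 percentile points, against −0.391 over all 13819 shared regions.

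Markers of other liver cells were checked beside these results. All 12 hepatocyte markers had a region in liver, as labelled. Endothelial marker regions were called in 52 and 42 of 63 cases in Cpt2 knockout and 11 and 8 in Ppara knockout, and cholangiocyte regions in 32 and 28 of 36 against 7 and 9. Stellate regions were called in 8 and 9 of 14 against 2 and 3, and lymphocyte regions in 10 and 8 of 11 against 7 and 3. Kupffer cell markers had only 5 regions, at C1qb, Cd68, Csf1r and Itgam, with 3 and 3 called in Cpt2 knockout and 0 and 0 in Ppara knockout; the defining Clec4f, Adgre1 and Timd4 had none. All regions were called at 86.3% and 79.2% in Cpt2 knockout and 44.2% and 39.5% in Ppara knockout. In equal-number lists endothelial regions were called in 8 and 9 of 14 cases in Cpt2 knockout and 10 and 8 in Ppara knockout, with 0 regions separating toward Cpt2 knockout, while cholangiocyte regions were called in 11 and 6 of 16 against 6 and 9. The part of cell composition in the results above was not tested.

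Outside the lists, the strongest regions called only in Cpt2 knockout were distal. The 8 with the highest mean percentile lay nearest Chrna2, Galnt2, Abhd6, Ccdc33, Tbc1d1, F3, Lpar3 and Amigo2. Abhd6 encodes a monoacylglycerol lipase, Tbc1d1 a regulator of glucose transporter traffic, F3 tissue factor and Lpar3 a lysophosphatidic acid receptor. The region inside Chrna2, a nicotinic receptor subunit, had percentiles 98.4 and 97.7 in Cpt2 knockout and 90.5 and 96.4 in wild type, and only 1 double knockout library had a peak, at 18.6. The region inside Abhd6 read 95.0 and 97.2 in Cpt2 knockout and 92.9 and 96.9 in wild type. All 8 were called in both wild type libraries.

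The 8 strongest regions called only in Ppara knockout had little link to lipid genes. The highest lay at chr15:60141663-60142122, 125045 bp from 4933412E24Rik, with percentiles 99.2 and 99.5 in Ppara knockout, 95.8 and 98.9 in double knockout and no peak in wild type or Cpt2 knockout. Cyp2b19, an epidermal P450 of the Cyp2b cluster, had a region 7208 bp away at 88.2 and 91.1. Others lay nearest Mfng, Tmem267, Tbc1d32, Xkrx and the Y-linked Gm20918, and 4 of the 8, nearest 4933412E24Rik, Cyp2b19, Mfng and Tbc1d32, had no peak in either wild type library. Of the 139 regions called only in Ppara knockout with all peaks, 69.1% had none in either.

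Position separated the sets. Of regions called in all 4 libraries, 52.1% lay within 1 kb of a gene start, against 15.9% of regions called only in Cpt2 knockout with all peaks (Clopper-Pearson 95% interval 15.2 to 16.6) and 4.32% of the 139 called only in Ppara knockout (1.60 to 9.16). In equal-number lists the shares were 10.6% (9.19 to 12.2) for Cpt2 knockout and 27.3% (24.7 to 30.0) for Ppara knockout, where 36.2% of all regions lay at a start. The intervals cover counting error only. With all peaks 27.7% of all regions lay at a start. The shares of both knockouts were thus below that of all regions in each way of counting, while the order of the knockouts turned with the way of counting. All regions include those called in all 4 libraries, whose median width was 608 bp. With all peaks it was 372 bp for Cpt2 knockout regions and 350 bp for Ppara knockout regions. The shares were not compared among regions of like width or strength.

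The calls in the other genotypes placed these regions. In equal-number lists, 60% of the 1635 Cpt2 knockout regions were called in both wild type libraries and 21.4% in both double knockout libraries, and 49.5% in no double knockout library. Of the 1096 called only in Ppara knockout, 8.85% were called in both wild type libraries, 65.9% in neither, and 37.0% in both double knockout libraries. For all 26568 regions the shares were 57.4% in both wild type, 26.4% in neither and 51.8% in both double knockout libraries. Of the Cpt2 knockout regions 13.0% were called in neither wild type library. Their share called in both wild type libraries was thus near that of all regions, the share called in neither was below it, and the share called in both double knockout libraries was below it too. Double knockout library 2 had 18132 peaks, fewer than the common length, so its whole list was used. The combination of both wild type and no double knockout library held 413 (25.3%) of the Cpt2 knockout regions, and the reverse combination held 255 (23.3%) of the Ppara knockout regions. Other regions followed neither pattern: 260 (15.9%) of the Cpt2 knockout regions were called in both wild type and both double knockout libraries, and so were missing from the equal-number lists of Ppara knockout alone, and 257 (23.4%) of the Ppara knockout regions were called in no library of either.

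**Figure D4:**
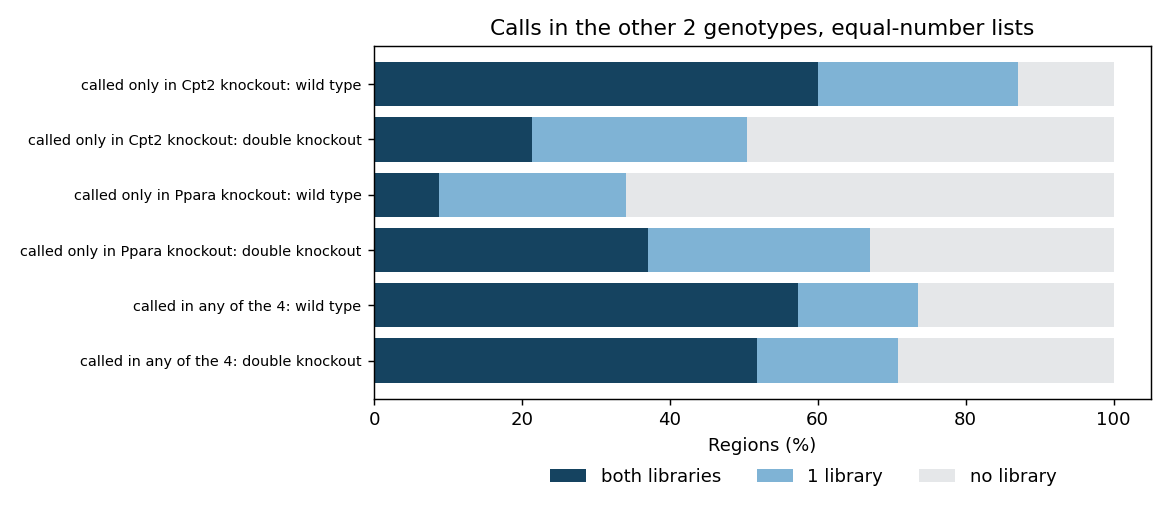
Share of regions (%) called in both, 1 or no library of wild type or double knockout, in equal-number lists, for regions called only in Cpt2 knockout, only in Ppara knockout, or in any of the 4 libraries. Of Cpt2 knockout regions 60% were called in both wild type libraries, against 8.85% of Ppara knockout regions.

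Regions open in both knockouts were compared by rank. The −log10 p of the 13819 shared regions was ranked within each library, and the ranks, as normal scores, were compared by limma with Benjamini-Hochberg adjustment. The Cpt2 knockout pair correlated across regions at a Spearman rho of 0.797 and the Ppara knockout pair at 0.687; across knockouts rho was 0.587 to 0.698, so that these ranges touch. At an adjusted p under 0.05, 4 regions (0.0289%) ranked higher in Cpt2 knockout and 51 (0.369%) in Ppara knockout. Without adjustment 884 and 837 regions were under 0.05. No region passed the adjusted threshold when either Cpt2 knockout library was left out, or with the replicate number as a block (smallest adjusted p = 0.104 by limma), whereas 461 and 313 passed without Ppara knockout library 1 and 164 and 158 without library 2. In 2924 regions (21.2%) both Cpt2 knockout ranks were above both Ppara knockout ranks, and in 3105 (22.5%) the reverse held. In simulated data of this size the test found 167 of 200 changed regions (83.5%) at a shift of 2 in normal score, with 5 false calls. At a shift of 1 it found 1 of 200, so modest shifts were beyond its reach. The simulated noise was equal for all regions, unlike in the data, so these recovery rates may not carry over.

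The 4 regions higher in Cpt2 knockout lay at Acox3, Rere, Onecut1 and Elavl1. The Acox3 start had shared percentiles of 49.0 and 56.3 in Cpt2 knockout against 3.23 and 0.619 in Ppara knockout (difference 2.24 in normal score, SE 0.44, adjusted p = 0.0473). A region inside Onecut1, a hepatocyte transcription factor, had 46.5 and 77.4 against 1.75 and 2.89. The region inside Elavl1, an RNA-binding protein, had 76.5 and 82.2 against 7.82 and 5.73, and that inside Rere, a corepressor, 54.6 and 60.2 against 1.28 and 2.76. No ranks overlapped between the knockouts at these regions.

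Among the 51 regions higher in Ppara knockout, 5 belonged to the lists. A region 470 bp outside Serpina1a, alpha-1-antitrypsin, had shared percentiles of 0.0760 and 0.0253 in Cpt2 knockout and 34.7 and 56.8 in Ppara knockout (difference −3.21, SE 0.44, adjusted p = 0.0309); this gene belongs to a family of close copies. The region inside Apoa1 had 2.61 and 7.82 against 75.8 and 76.1. A region overlapping Apoa5, a regulator of plasma triglyceride, had 20.4 and 3.20 against 80.4 and 96.5. It lay 655 bp from an annotated gene start or end, which need not be that of Apoa5. Inside Ahsg, fetuin-A, ranks were 28.9 and 39.1 against 97.2 and 98.7. Slc27a2, a very long-chain acyl-CoA synthetase and fatty acid transporter, held a region inside the gene with 22.3 and 25.0 in Cpt2 knockout and 91.6 and 94.5 in Ppara knockout (adjusted p = 0.0465).

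The rest of the 51 had few gene starts. In all, 1 of 51 lay at a gene start, 22 inside genes and 28 outside; 7 began below 3.3 Mb on their chromosome, where mouse assemblies start after an unsequenced centromere, against 31 of all 13819, and 3 lay on chromosome Y, against 6. The region nearest Maf, 154947 bp away, had 10.1 and 6.35 in Cpt2 knockout and 89.0 and 97.9 in Ppara knockout, and those nearest Ktn1, Fam174a, Atrnl1, Samd9l, Vmn2r129, Mindy2 and Cep128 had the same form. Vmn2r129, Olfr161 and Vmn1r2, each nearest to 2 of the 51, belong to multigene families, and Gm52481, nearest to 3, lies on chromosome Y; reads in close copies may not be assigned uniquely, so these ranks are uncertain. Of the 44 regions of this set called in all 8 libraries, wild type lay nearer Cpt2 knockout in 42 and double knockout nearer Ppara knockout in 42. Their median percentiles were 23.2 in wild type, 7.41 in Cpt2 knockout, 91.1 in Ppara knockout and 85.8 in double knockout.

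The wider set did not split the double knockout in this way. Among regions where both Ppara knockout ranks were above both Cpt2 knockout ranks, wild type lay nearer Cpt2 knockout in 77.8% and double knockout nearer Ppara knockout in 49.0%, against 68.0% and 48.8% of all shared regions. For the reverse set the shares were 78.7% and 46.2%.

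**Figure D5:**
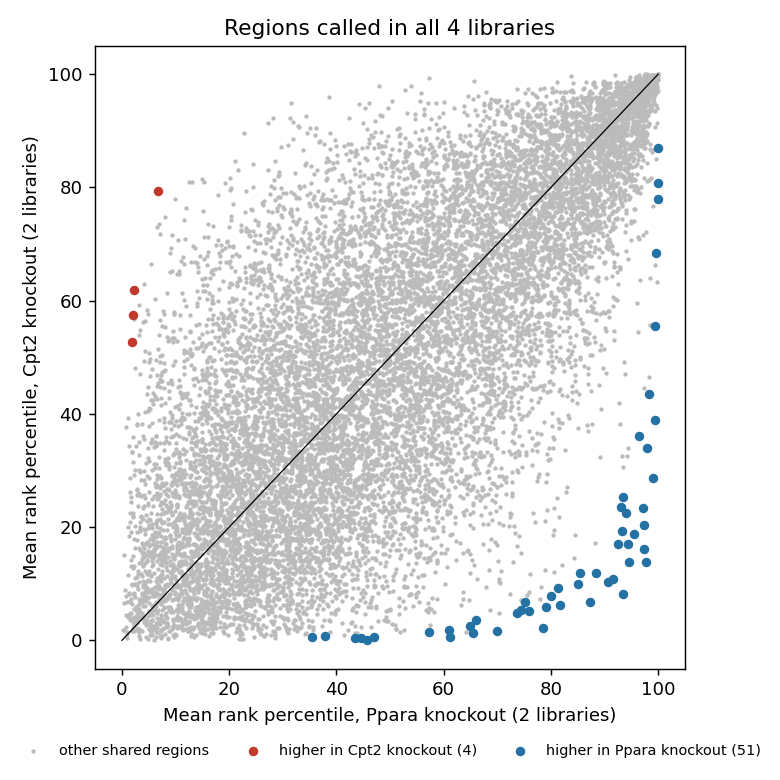
Mean percentile of each of the 13819 shared regions in Ppara knockout (x) and Cpt2 knockout (y), with the line of equality. Coloured points passed an adjusted p of 0.05 in limma: 4 ranked higher in Cpt2 knockout and 51 in Ppara knockout, the latter mostly near the lower right border.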

How the data were processed

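The authors deposited a MACS2 2.1.0 peak list for each library, aligned with BWA to mm10 per the submitters' processing notes, and a table of merged consensus regions; duplicate handling and read shifting are not given in the sources used here. The deposited score is 10 times −log10 p, the deposited fold is a ratio to local background, and each peak has a deposited −log10 p-value and −log10 q-value. These are the authors' values and were used only within a list. No counts per region were used.

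A peak overlapping a consensus region by at least 1 bp called it. Equal-number lists kept the strongest 18283 peaks per library, or all 18132 for double knockout library 2. Ranks of −log10 p over shared regions were tested with limma 3.58.1 in R 4.3.3, after a check on simulated data; other steps ran in Python 3.11.15 (pandas 2.3.3, SciPy 1.17.1, NumPy 2.4.6) with plots by matplotlib 3.10.9. Regions went to the nearest of 21887 protein-coding RefSeq genes. Starts were known for 17492 (79.9%), and either end served for the others. A region counted as lying at a start when any gene's start was within 1 kb, which need not be that of the nearest gene. Named by rule were the 8 strongest changed regions and, by adjusted p, up to 8 shared regions per direction, and up to 3 changed and 2 shared regions per list; further genes, including the printed promoters, were chosen after their values were seen. Some regions that the rule names are not reported here. The regions and lists were chosen with earlier results of these data known. The labels do not say that libraries came from separate mice, so p-values measure the spread between libraries, which may be technical. Replicate numbers 1 and 2 occur in each group. Differences between them correlated at −0.00968 between the knockouts (Pearson, 13819 regions), so these ranks showed no shared effect of the number. This cannot tell whether libraries of the same number were handled together.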

Additional observations from a re-analysis of the deposited data

How the results depend on the processing

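Depth is unknown, and 2 libraries per group limit each comparison. Regions called only in Cpt2 knockout numbered 12588 to 17366 when 1 library was left out (from 10415), and in equal-number lists 2495 to 3360, or 2966 when peaks had to cover 50% of a region (from 1635). Regions called only in Ppara knockout numbered 227 to 869 with 1 library left out and 33 at a −log10 q of 20 (from 139), and 1834 to 3530 in equal-number lists (from 1096). By limma, shared regions higher in Cpt2 and Ppara knockout, 4 and 51, became 23 and 37 when ranked by fold, 62 and 94 with all 8 libraries, and 82 and 110 with a variance trend. With the replicate number as a block they became 0 and 0 (unadjusted p under 0.05 in 864 and 796), and any pairing by number is unknown. With 1 library left out they ranged from 0 to 461 and from 0 to 313; both counts were 0 without Cpt2 knockout library 1 (unadjusted 485 and 564) or 2 (390 and 497), and 461 and 313 without Ppara knockout library 1, or 164 and 158 without library 2, the lone library being assumed to vary like the other group. The 55 regions were chosen in these same libraries, and their ranks did not overlap between the knockouts. Leaving out a library or adding the block could therefore not change their direction. Ranked by fold, all 55 kept their direction, and by limma 49 had an unadjusted and 28 an adjusted p under 0.05. Of Cpt2 knockout regions 28.4% lay within 5 kb of a start, and of Ppara knockout regions 12.2%; in equal-number lists 10.6% and 27.3% lay within 1 kb, and 60% and 21.4% of Cpt2 knockout regions were called in both wild type and both double knockout libraries, against 52.4% and 7.81% with all peaks.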

Other observations

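Further gene lists are read against all regions in equal-number lists, 6.15% toward Cpt2 knockout and 4.13% toward Ppara knockout. Hepatocyte transcription factors had 11 of 151 regions called only in Cpt2 knockout, with 4 of the opposite kind, and urea cycle genes 3 and 4 of 57. Of cholesterol genes, 4 of 53 regions were called only in Cpt2 knockout, at Insig1 (2), Insig2 and Srebf2, genes that sense and set sterol synthesis. The 1 region of the opposite kind lay at Pmvk. Antioxidant genes had 3 of 36 called only in Cpt2 knockout, at Gclm, Hmox1 and Gstm3, which serve glutathione and heme metabolism, and 1 of the opposite kind, at Gclc. Immediate early genes had 4 of 72, including 2 distant from Myc and the start of Ier2, and no region of the opposite kind. Growth genes had 2 of 50, both at Ghr, the growth hormone receptor, and 1 of the opposite kind, at Mki67. Inflammation genes had 1 region toward Cpt2 knockout and 3 toward Ppara knockout, of 38 (2.63% and 7.89%). Xenobiotic oxidation had 4 and 6 of 47 regions, so its share toward Ppara knockout was 12.8%; the start of Nr1i3, the xenobiotic receptor CAR, was on the Cpt2 knockout side, at percentiles 74.6 and 83.1. Fasting hepatokines had 3 and 2 of 32.

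The genes with the most changed regions, picked for their counts, were these. Foxo1, Itgb5 (an integrin) and Ptpn1 (a phosphatase of the insulin receptor) each had 4 regions called only in Cpt2 knockout in equal-number lists; with all peaks 27, 17 and 24 regions in all were nearest to them. The largest groups toward Ppara knockout were nearest Olfr161 (6), Vmn1r2 (5), Zfp978 (4) and Gm52481 (4). With all peaks 13, 10, 11 and 8 regions in all were nearest to them. Olfr161, Vmn1r2 and Zfp978 belong to multigene families, in whose copies reads may not be assigned uniquely. In equal-number lists 1382 genes were nearest to a Cpt2 knockout region and 1004 to a Ppara knockout region, and 134 genes were nearest to both kinds. With all peaks 14138 genes were nearest to at least 1 region. The matching total for equal-number lists was not counted, so whether the overlap is large or small was not tested.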
